A study of Mus musculus with 10 samples.

Results

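The expressed zinc finger genes named Zfp plus a number were followed across mouse embryonic stem cells that had lost the acetyltransferase gene Mof, had been given etomoxir, or had been released from it. A row of the gene table was kept when a symbol of that form stood in its name and the plain mean of its 10 values was 100 or more. Zfp42 and Zfp57 were left out. Of 363 such rows, 241 were kept, which gave 238 gene names among the 49624 names of the whole table. Members were thus chosen by their level over all libraries and not by any difference between groups.

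RNA was sequenced in 5 groups of 2 libraries. WT and KO came from embryonic stem cells labelled Mof fl/fl with Cre-ER TM on a C57BL/6J background, the floxed gene being removed when tamoxifen activates the recombinase. This line received ethanol or 100 nM 4-OHT for 3 days, and the labels do not say which group received which. Control (water for 4 days), ETO (etomoxir for 4 days) and Released (4 days of etomoxir, then 4 days without it) came from the E14tg2a line. Etomoxir inhibits the carnitine palmitoyltransferase that admits long-chain fatty acids to mitochondria. All cells were kept in 2i/LIF medium with 1 µM PD0325901, 3 µM CHIR99021 and 1000 U/ml LIF, which holds them in the naive state. The duplicates were called biological by the submitters, without saying what separated them. The labels name no group that had 4-OHT or active Cre with an intact Mof gene, so those effects and the loss of Mof cannot be told apart.

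The values below are normalised counts, that is reads scaled by a single factor in each library. They summed to 10562100 to 13326200 per library, from an estimated 9783250 to 16779200 reads, and 3 reads were worth 2.07 to 4.04 normalised counts. Duplicates differed by a median of 0.18 on the log2 scale in WT, 0.15 in KO and 0.11 to 0.12 in the other groups. Mof is listed as Kat8. It was at 433 and 357 in WT and at 222 and 205 in KO, a log2 change of -0.88 (SE 0.11, adjusted p = 3.64e-05, limma). Signal for the gene thus remained in the KO libraries, and whether it came from outside a deleted stretch or from cells that kept the gene was not tested. The 8 naive stem cell markers, Pou5f1 and Nanog among them, had a value of 10 or more in at least 1 library, and their sum was 54789 to 63221 in WT, KO, Control and Released and 38004 to 39885 in ETO. The 6 trophectoderm markers summed to 5605 to 5994 in ETO, 983 to 992 in Control, 1403 to 1468 in Released, 1570 to 1627 in KO and 1284 to 1289 in WT, and 1 of them was under 10 in every library. The 6 primitive endoderm markers summed to 591 to 612 in ETO, 264 to 288 in Control and 617 to 684 in Released. The 6 fibroblast markers summed to 185 or less, and 5 of 6 markers of 2-cell-like cells were under 10 in every library. The part of these cell types in the changes of the Zfp genes was not tested, and in bulk RNA fewer cells of a type and less RNA per cell cannot be told apart.

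A C2H2 zinc finger is a short loop folded around a zinc ion by a pair of cysteines and a pair of histidines, and arrays of such fingers read DNA sequence. The largest group of mammalian zinc finger genes also encodes a KRAB domain, which recruits the corepressor TRIM28 and, through it, the histone methyltransferase SETDB1 and heterochromatin proteins. In embryonic stem cells, KRAB zinc finger proteins are known for silencing retroelements and guarding imprinted genes. Their genes lie in tandem clusters that grew by duplication. Other Zfp genes encode ordinary transcription factors, RNA-binding proteins or proteins of the spindle, and share little beyond the name.

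A KRAB pattern and fingers were found in the translated coding sequences of 123 members, fingers without the pattern in 107, and neither in 8. Zfp37, listed below as a KRAB factor, fell among those with fingers alone, so that class may hold KRAB genes that the pattern missed. The members with the pattern had a median of 12 fingers, and those with fingers alone had 8. Members were spread unevenly over the genome, with 61 on chromosome 7, 29 on chromosome 17 and 18 on chromosome 4. Linking Zfp genes of any level, members or not, that lay within 1000000 bases of each other gave 6 clusters with 8 or more members. Much of what follows turns on the cluster at chr4:145510759-147848366 (mm10), whose 11 members all carried the KRAB pattern.

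The promoters of that cluster are shown because its members changed together. RefSeq's promoter table (GRCm38.p6, 250 bases before to 50 after each start) matched 215 of the 259 Zfp symbols in the members' rows. Of the 12 such symbols in this cluster it matched 9. A search for the 12-letter word, on either strand, that most of the cluster's promoters shared upstream of the start gave GGAAGCTAATTA. It stood in 9 of 9 of these promoters, and in 12 of the 27025 promoters of the table (0.0444%). The remaining 3 belong to Gm13212, Rex2 and Zfp987, which lie in the same stretch of chromosome 4. The word was chosen from these promoters, so its share there is a description. Each line gives 102 bases, 5′ to 3′ on the gene's strand, with the word in capitals.

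Zfp980: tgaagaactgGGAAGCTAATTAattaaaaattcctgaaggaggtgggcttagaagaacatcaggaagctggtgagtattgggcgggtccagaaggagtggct
Zfp600: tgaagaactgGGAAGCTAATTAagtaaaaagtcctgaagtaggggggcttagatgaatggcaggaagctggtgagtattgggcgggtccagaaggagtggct
Zfp981: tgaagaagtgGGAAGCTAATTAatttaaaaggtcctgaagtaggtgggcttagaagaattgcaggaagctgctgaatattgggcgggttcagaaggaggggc
Zfp988: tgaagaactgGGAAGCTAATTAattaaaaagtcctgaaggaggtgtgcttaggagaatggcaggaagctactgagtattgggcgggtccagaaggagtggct
Zfp982: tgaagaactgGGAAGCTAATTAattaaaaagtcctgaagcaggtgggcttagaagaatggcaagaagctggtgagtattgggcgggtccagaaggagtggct
Zfp985: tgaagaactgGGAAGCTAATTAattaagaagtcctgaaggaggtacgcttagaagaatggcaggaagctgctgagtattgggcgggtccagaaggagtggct
Zfp979: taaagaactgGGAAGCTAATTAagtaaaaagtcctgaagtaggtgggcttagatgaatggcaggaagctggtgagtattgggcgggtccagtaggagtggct
Zfp534: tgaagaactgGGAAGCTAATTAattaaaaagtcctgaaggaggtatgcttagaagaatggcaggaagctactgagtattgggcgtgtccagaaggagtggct
Zfp984: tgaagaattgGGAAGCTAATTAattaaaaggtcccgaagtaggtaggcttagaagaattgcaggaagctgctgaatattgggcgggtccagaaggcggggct

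These windows lie on the plus strand for Zfp980 (chr4:145670548-145670649), Zfp600 (chr4:146156684-146156785), Zfp981 (chr4:146514748-146514849), Zfp988 (chr4:147305482-147305583), Zfp982 (chr4:147492258-147492359) and Zfp985 (chr4:147553133-147553234). They lie on the minus strand for Zfp979 (chr4:147642556-147642657), Zfp534 (chr4:147702644-147702745) and Zfp984 (chr4:147809849-147809950). The word began 104 to 162 bases before the RefSeq start. The 4 named motifs were searched over the whole 300 bases on both strands. CCGGAAGT, an ETS-type site, was in 11.2% of the members' promoters and in 4.31% of all promoters. TGACGTCA, the CRE, was in 4.65% against 2.03%, CACGTG, the E-box, in 10.2% against 8.09%, and TGATGNAAT in 0.465% against 1.08%. None of these 4 motifs was in the 9 promoters printed above. The median number of CG dinucleotides was 15 per member promoter, 10 where the protein had the KRAB pattern, and 7 over all promoters.

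Most members were present at moderate levels in every group. The median member had a mean of 370.8 normalised counts, 36 were over 1000, and 204 had a mean of 100 or more in each of the 5 groups. The other 34 fell under 100 in at least 1 group, and 10 members would have missed the mean of 100 without 1 of the groups in which they were high. Among those 10 are Zfp362, kept through ETO, Zfp454, through Control or Released, the row of Zfp125, through KO, Zfp358 and Zfp931, through WT, Zfp30, through WT or Control, and Zfp189, through WT, Control or Released. Their differences from the group that kept them were therefore favoured by the choice of members. Per length, the median was 8.51 FPKM for members with the KRAB pattern and 13.8 FPKM for all members without it. The member of highest FPKM was Zfp207, the spindle assembly factor BuGZ, with a mean of 162 FPKM. Next to the threshold stood Zfp189 with a mean of 100.1, a second row of Zfp459 with 100.4 and Zfp931 with 101.7 just inside. Zfp959 with 94.9, Zfp449 with 97.6 and Zfp933 with 99.7 were just outside.

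The highest of a member's 5 group means was a median of 1.86 times its lowest. The ratio was 2 or more in 97 members and under 1.5 in 43. Zfp511 was at 294 and 263 in WT, 250.2 and 260.2 in KO, 259 and 246 in Control, 251 and 248 with ETO, and 289 and 249 in Released. No comparison called it, and its groups overlapped or lay close together. The widest ratio, 8.15, was that of Zfp454, a KRAB gene kept through its E14tg2a libraries, at 22.9 and 24.9 in KO and 202 and 187 in Released. KO held the highest group mean of 69 members and Control of 56, while WT held the lowest of 81 and ETO of 69.

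KO was compared with WT to ask how the family stood with the acetyltransferase gene targeted. Members were called at an adjusted p under 0.05 (limma, Benjamini-Hochberg over the 16056 genes tested). In KO, 98 of 238 members rose and 18 fell, 41.2% and 7.56%. Of all genes tested 24.6% rose and 13.3% fell, and of the 10349 with a mean of 100 or more 32.5% rose and 15.0% fell. The rising share of the members thus lay above that background and the falling share under it. The members' median log2 change was 0.22, against 0.08 over all genes. Of the 204 members at 100 or more in every group, 89 rose and 10 fell.

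The KRAB genes and the genes with fingers alone were counted apart, and the difference between them was not tested. Of 123 with the pattern, 55 rose (44.7%) and 8 fell, with a median log2 change of 0.27. Of 107 with fingers alone, 39 rose (36.4%) and 8 fell, with a median of 0.12. Of the 69 KRAB members outside the 6 clusters named below, 24 rose (34.8%) and 4 fell (5.80%). That rising share was near the 32.5% of genes with a mean of 100 or more, and the falling share was under their 15.0%. The summed KRAB signal was 49108 and 58085 in WT and 63877 and 68993 in KO. The WT libraries differed from each other, and both lay under both KO libraries.

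The scale of the libraries matters here. With the total signal as the factor, the median change over all genes moved from 0.08 to -0.08, and the shares of all genes that rose and fell moved to 13.5% and 23.0%. The members then counted 55 rising and 46 falling, the KRAB genes 33 and 14, and the genes with fingers alone 19 and 29. A factor per library moves all genes nearly alike, so the KRAB median lay 0.18 above the median of all genes on either scale, nearly by construction. The deposited FPKM values gave 44 rising members, and the KRAB count was 34 without WT replicate 1 and 35 without KO replicate 2.

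Among 22 kept genes listed as KRAB factors with known roles at retroelements or imprinted genes, 14 rose (63.6%), 0 fell and the median log2 change was 0.41. In KO, 32.5% of genes with a mean of 100 or more rose. Part of the 22 also lie in the chromosome 4 cluster described below. Zfp809, which silences retroviral DNA in embryonic cells, was at 491 and 546 in WT and 782 and 817 in KO (0.62, SE 0.08, adjusted p = 3.01e-05, limma). Zfp568, a repressor of a placental Igf2 promoter, was at 1856 and 1936 in WT and 2465 and 2697 in KO (0.44, SE 0.06, adjusted p = 9.28e-05, limma). Both KO libraries lay above both WT libraries for these 2 genes. Zfp445, which maintains imprints, was at 1945 and 2336 in WT and 2295 and 2454 in KO, and the overlapping groups were not called apart (0.15, adjusted p = 0.172, limma). The FPKM values called 7 of the 22 as rising.

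Of 23 kept genes for transcription and chromatin factors, 14 rose (60.9%, beside 32.5% of genes with a mean of 100 or more) and 0 fell, with a median of 0.26. Zfp296, a transcription factor of stem and germ cells, was at 239.7 and 211 in WT and 553 and 437 in KO (1.12, SE 0.11, adjusted p = 4.75e-06, limma). Its KO libraries were each above both WT libraries. Zfp131 rose by 0.70 (adjusted p = 4.48e-05), Zfp219 by 0.62 (adjusted p = 4.57e-05) and Zfp281, a regulator of the exit from pluripotency, by 0.33 (adjusted p = 0.00465). Zfp143, which binds promoters and chromatin loop anchors, was steady at 1047 in each WT library and 1099 and 1098 in KO (0.07, adjusted p = 0.524, limma). The count of 14 was 6 with the total signal as the factor, 5 with FPKM values, and 9 without KO replicate 2.

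Of 12 genes for proteins of RNA, translation, mitosis or ubiquitin, 7 rose (58.3%) and 2 fell (16.7%), with a median of 0.51. Those shares stood beside 32.5% and 15.0% of genes with a mean of 100 or more. Zfp106, an RNA-binding protein and the member of highest mean, was at 7660.1 and 8064 in WT and 11146 and 11535 in KO (0.53, SE 0.06, adjusted p = 8.05e-06, limma). Zfp207 was at 3285 and 3521 in WT and 4800.3 and 4784 in KO (0.49, adjusted p = 1.29e-05, limma). Zfp598, a ubiquitin ligase that senses collided ribosomes, was at 1855 and 1686 in WT and 2716 and 2394 in KO (0.53, adjusted p = 7.84e-05, limma). In each of these genes the KO libraries were the higher ones, without overlap. The row that joins Zfp91, a ubiquitin ligase, with Cntf rose by 0.78 (adjusted p = 2.61e-06, limma). Zfp36 encodes tristetraprolin, which brings mRNAs with AU-rich ends to decay. It was at 159 and 164 in WT and 307 and 253 in KO (0.78, SE 0.14, adjusted p = 0.000573, limma).

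The 2 genes of this list that fell were Zfp346 and Zfp277. Zfp346, which binds double-stranded RNA, was at 1250.3 and 1176 in WT and 811 and 774 in KO, a fall of all KO libraries under all WT libraries (-0.61, SE 0.08, adjusted p = 4.57e-05, limma). Zfp277 went from 714 and 839 to 549 and 558 (-0.48, adjusted p = 0.001, limma).

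The largest single changes lay outside the lists. Zfp365 was at 268 and 278 in WT and 651 and 620.5 in KO (1.22, SE 0.09, adjusted p = 3.09e-07, limma). Zfp264, annotated as a pseudogene, was at 120.3 and 123 in WT and 47.1 and 42.9 in KO (-1.42, SE 0.16, adjusted p = 9.98e-06, limma). Neither gene's groups came near each other. Among the falling genes, Zfp358 changed by -1.18 (adjusted p = 9.2e-05), Zfp30 by -1.08 (adjusted p = 0.000154) and the row of Zfp783 and Zfp956 by -1.01 (adjusted p = 2.12e-05). Zfp358 is a member through WT and Zfp30 through WT or Control, so the falls of these genes were favoured by the choice of members.

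**Figure D1:**
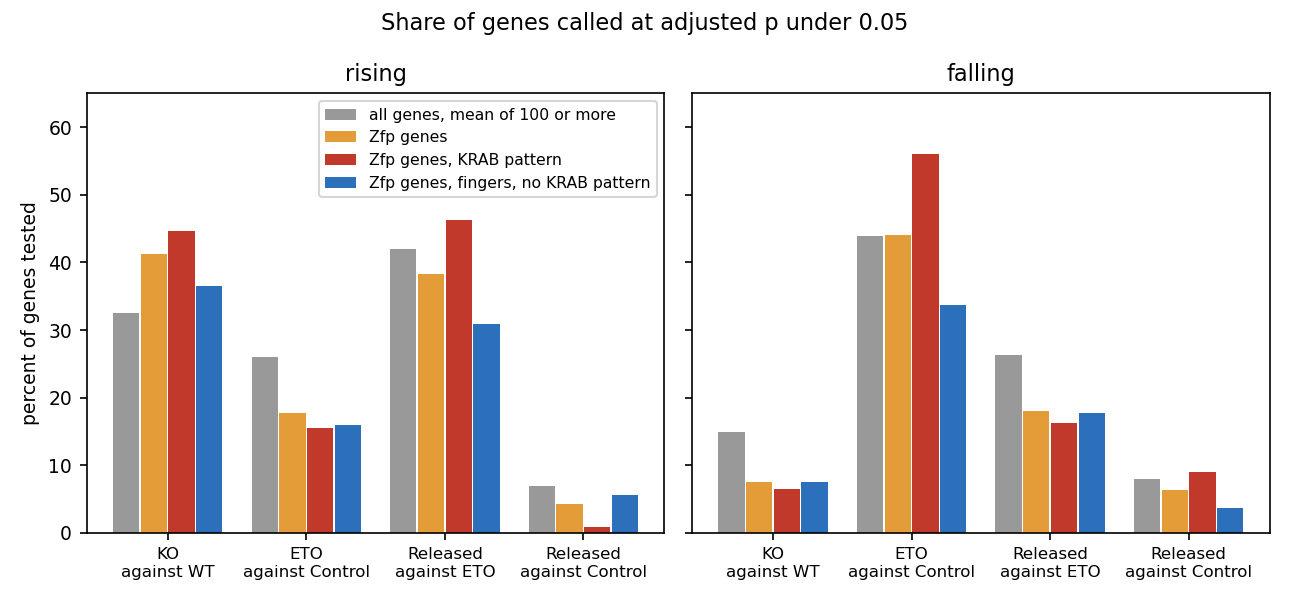
Percent of tested genes called rising (left) and falling (right) at an adjusted p under 0.05 in 4 comparisons, for all genes with a mean of 100 or more, the 238 Zfp genes, those with the KRAB pattern and those with fingers alone; bars start at 0. The KRAB bar reaches 44.7% rising in KO against WT and 56.1% falling in ETO against Control.

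Etomoxir was compared with water in the E14tg2a line. In ETO, 105 of 238 members fell and 42 rose, 44.1% and 17.6%. Of all genes 34.0% fell and 26.8% rose, and of those with a mean of 100 or more 43.9% fell and 26.0% rose. The falling share of the whole family was therefore at the background of genes of its level, while its rising share was under it. Within the family the counts were uneven. Of the KRAB genes, 69 of 123 fell (56.1%) and 19 rose, with a median of -0.41, while 36 of the 107 with fingers alone fell and 17 rose, with a median of -0.08. The median over all genes was -0.09.

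The summed KRAB signal was 71615 and 71526 in Control and 56000 and 53582 in ETO, a ratio of 0.766, with each ETO library under each Control library. Of 69 KRAB members outside the 6 clusters, 34 fell (49.3%) and 14 rose (20.3%), beside 43.9% and 26.0% of genes with a mean of 100 or more. With the total signal as the factor the KRAB genes counted 54 falling and 25 rising and the genes with fingers alone 23 and 29. The median of the genes with fingers alone, -0.08, lay at the -0.09 of all genes, and their counts turned as that factor moved all genes. The members at 100 or more in every group counted 93 falling and 35 rising.

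Of the 22 genes listed as KRAB factors for retroelements or imprints, 17 fell (77.3%) and 0 rose, with a median of -0.64. Among genes with a mean of 100 or more, 43.9% fell. Of the 22, 9 were also members of the chromosome 4 cluster. Outside it, the row of Zfp932 with Gm15446 was at 469 and 511 in Control and 291 and 273 in ETO (-0.79, SE 0.11, adjusted p = 1.28e-05, limma). Zfp445 was at 2056 and 2159 in Control and 1313 and 1501 in ETO (-0.59, SE 0.09, adjusted p = 2.47e-05, limma). In both the ETO libraries were the lower ones, without overlap. Zfp809 (1186 and 1175 against 1151 and 1067) and Zfp568 (3190.0 and 3103 against 3051 and 3296) were not called, with changes of -0.09 and 0.01.

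Of the 23 transcription and chromatin genes, 9 fell (39.1%, under the 43.9% of genes of their level) and 4 rose, with a median of -0.10 that turned to 0.07 with the total signal as the factor. Zfp143 was at 652 and 662 in Control and 428 and 391 in ETO (-0.68, SE 0.08, adjusted p = 2.31e-06, limma). Zfp770 was at 534 and 563 in Control and 274 and 249.9 in ETO (-1.06, SE 0.10, adjusted p = 2.68e-07, limma). Zfp296 fell by 0.50 (adjusted p = 0.00132), Zfp219 by 0.45 (adjusted p = 0.000226) and Zfp281 by 0.40 (adjusted p = 0.000493, limma).

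Of the 12 genes for RNA, translation, mitosis or ubiquitin, 5 fell and 2 rose. The falling share, 41.7%, was near the 43.9% of genes with a mean of 100 or more. Zfp207 was at 5666 and 5550.5 in Control and 3061 and 2896 in ETO (-0.91, SE 0.06, adjusted p = 2.11e-09, limma), with ETO far under Control in every library. Zfp106 fell by 0.45 (adjusted p = 6.51e-06, limma). The rising genes were Zfp36 and Zfp346. Zfp36 was at 118 and 146 in Control and 324 and 326 in ETO (1.30, SE 0.14, adjusted p = 1.14e-06, limma).

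The strongest rises were those of genes without the KRAB pattern. Zfp750, a regulator of epidermal differentiation, was at 93.6 and 79.9 in Control and 624 and 677 in ETO (2.90, SE 0.11, adjusted p = 1.38e-11, limma). Its ETO libraries were the highest of all 10. Zfp362 was at 46.2 and 48.8 in Control and 196 and 245 in ETO (2.18, SE 0.17, adjusted p = 1.98e-08, limma), and it is a member through those ETO libraries. The row of Zfp775 with Repin1, a replication initiator gene, and 3 unnamed gene models was at 253 and 291 in Control and 711 and 771 in ETO (1.45, SE 0.10, adjusted p = 5.75e-09, limma), so its reads cannot be given to 1 gene. Of the 8 members with neither pattern, 6 rose and 0 fell, beside 26.0% of genes with a mean of 100 or more that rose. Their summed signal was 1860 and 1803 in Control and 3081 and 3114 in ETO, 1.69 times that of Control. Zfp750, with the values given above, is part of that sum. The 8 are Zfp36, Zfp185, Zfp264, Zfp330, Zfp365, Zfp750, Zfp839 and a row of Zfp125.

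The largest falls, apart from those of the clusters described next, were those of the KRAB genes Zfp846 (-1.20, adjusted p = 1.69e-07) and Zfp111 (-1.08, adjusted p = 7.31e-06, limma). Zfp846 went from 399.6 and 409 in Control to 178 and 172 in ETO.

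**Figure D2:**
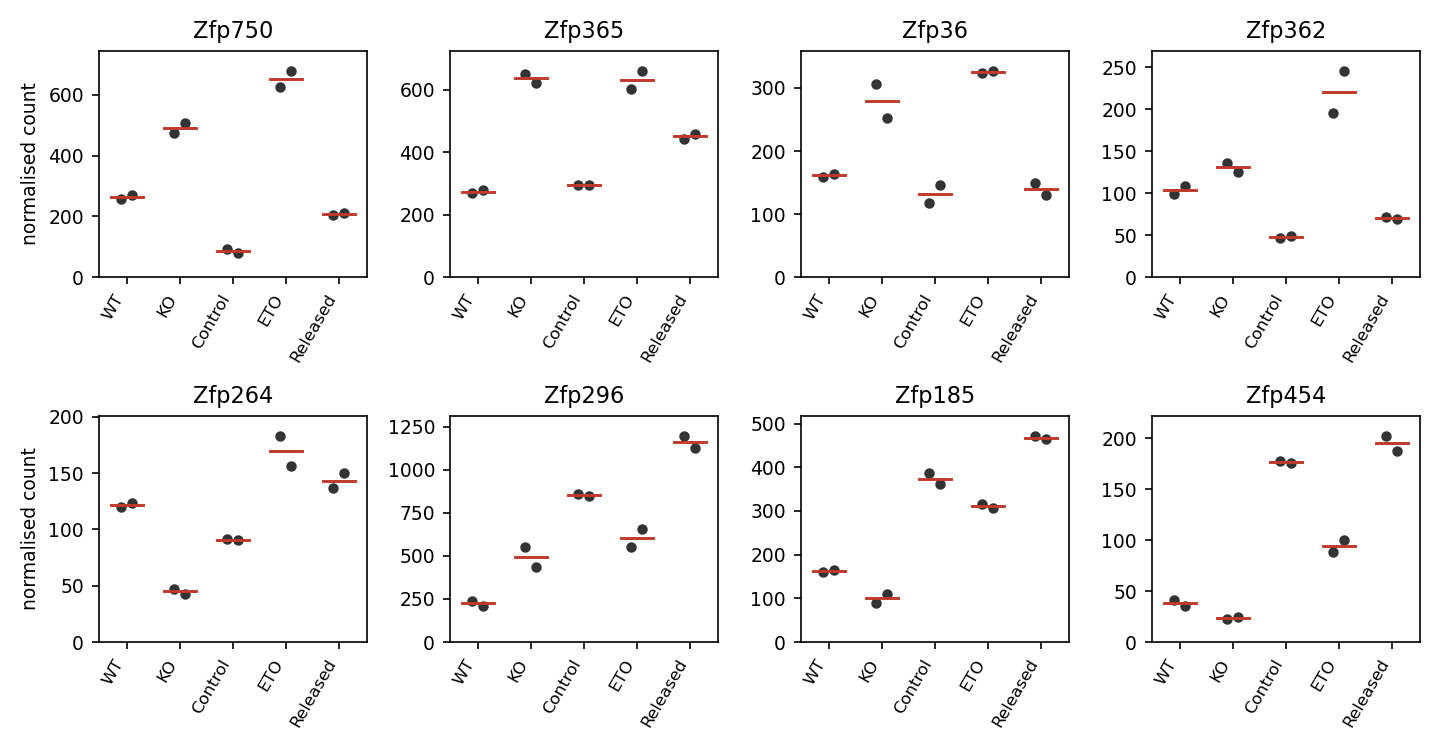
Normalised counts of 8 members by group, with each point a library and each line the mean of 2. Zfp750, Zfp365 and Zfp36 lie higher in KO than in WT and higher in ETO than in Control, and Zfp264 lies lower in KO and higher in ETO.

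The chromosome 4 cluster fell as a whole in ETO. All 11 of its members were called falling, with a median of -0.87 that was 0.78 under the median of all genes. Their summed signal was 13289 and 13292 in Control, 6826 and 6013 with ETO and 13443 and 13911 in Released, or 0.483 of Control in ETO and 1.03 times Control after release. Zfp990 (chr4:145510759-145539188, plus strand) was at 4569 and 4576 in Control, 1914 and 1695 with ETO and 4752 and 4807 in Released (ETO against Control -1.34, SE 0.09, adjusted p = 7.77e-09, limma). Zfp985, whose promoter is printed above, was at 1774 and 1697, 759 and 703, and 1674 and 1718 in the same order (-1.25, SE 0.10, adjusted p = 4.3e-08, limma). The row of Zfp979 and Zfp984 was at 3510.3 and 3434 in Control, 2041 and 1777 with ETO and 3305 and 3436 in Released. The ETO libraries were the lowest of the 3 groups for each of these rows. The other members fell by 0.57 (Zfp982) to 1.07 (Zfp988).

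In KO, 9 of the 11 rose and 0 fell, with a median of 0.53. The summed signal was 7487 and 9783 in WT and 11542 and 12772 in KO, 1.41 times WT. Zfp992 (chr4:146449023-146470292, plus strand) was at 241 and 273 in WT and 488 and 545 in KO (1.01, SE 0.13, adjusted p = 3.36e-05, limma). Zfp990 was at 2035 and 2583 in WT and 3182 and 3441 in KO (0.53, SE 0.09, adjusted p = 0.000413, limma). Zfp981 (0.16, adjusted p = 0.279) and Zfp978 (0.16, adjusted p = 0.464, limma) were not called. The 2 WT libraries differed by more than the KO libraries, and 5 of the 11 rose without WT replicate 1, 5 with the total signal as the factor and 4 with FPKM values. Zfp985, Zfp988, Zfp990 and Zfp992 rose under every alternative.

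The cluster's ETO calls held more widely, with 9 of the 11 made under every alternative, the exceptions being Zfp981 with FPKM values and Zfp978 without ETO replicate 2. Neighbouring genes within the same stretch that carry other names, 16 of them tested, counted 0 rising and 6 falling in ETO and 5 rising and 1 falling in KO. Over all genes tested, 26.8% rose and 34.0% fell in ETO, and 24.6% rose and 13.3% fell in KO. The cluster's genes are near-identical copies, and how reads that match several of them were counted is not given in the sources used here. The summed signal does not depend on how such reads were divided among the members. It could still change with reads shared with copies that are not members, or left uncounted.

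A second cluster with this pattern lay at chr7:41633203-43618285 and held 8 members, all with the KRAB pattern and 3 of them rows that join several genes. In KO 7 of 8 rose and 0 fell, and in ETO 7 of 8 fell and 0 rose, with medians of 0.56 and -0.75. Of genes with a mean of 100 or more, 32.5% rose in KO and 43.9% fell in ETO. Neighbours with other names, 13 of them tested, counted 3 rising and 1 falling in KO and 1 rising and 5 falling in ETO. The summed signal was 2793 and 3479 in WT, 4558 and 4877 in KO, 5471 and 5611 in Control, 3398 and 3116 with ETO and 5157 and 5379 in Released. The row of Zfp936 and EU599041 was at 573 and 770.5 in WT, 1270.0 and 1278 in KO, 1977 and 2064 in Control, 1098 and 974 with ETO, and 1816 and 1842 in Released. It rose by 0.94 in KO (SE 0.11, adjusted p = 1.29e-05) and fell by 0.97 in ETO (SE 0.11, adjusted p = 1.4e-06, limma). Zfp976 fell by 1.25 in ETO (adjusted p = 5.45e-07, limma), from 483 and 528 to 215 and 208. The uncalled member was Zfp715, at 379 and 412 in WT and 385 and 424 in KO, and at 599 in each Control library and 537 and 501 in ETO. Calls under every alternative were 4 of 7 in KO and 5 of 7 in ETO, and rows of single genes alone gave 4 in each. The 12-letter word of the chromosome 4 promoters stood in none of its 10 promoters, and the word most shared here stood in 4 of 10.

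In each of the other clusters a smaller share of the members rose in KO and fell in ETO. Of genes with a mean of 100 or more, 32.5% rose and 15.0% fell in KO. In ETO 26.0% of them rose and 43.9% fell. At chr17:21008903-23599487, with 16 members, 8 rose and 1 fell in KO, and 10 fell and 1 rose in ETO. Called or not, 13 of these 16 changed upward in KO (median 0.38) and 15 changed downward in ETO (median -0.55), so this cluster leaned the same way. The KO count there was 4 without WT replicate 1, 4 without KO replicate 2 and 3 with FPKM values. At chr7:29768552-30169750, with 12 members and Zfp568 among them, 7 rose and 3 fell in KO, and 0 rose and 5 fell in ETO. At chr7:6131491-7209998, with 8 members, 0 rose and 2 fell in KO, and 4 rose and 2 fell in ETO. At chr13:66669928-67827002, with 8 members, 2 rose and 0 fell in KO, and 1 rose and 2 fell in ETO.

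**Figure D3:**
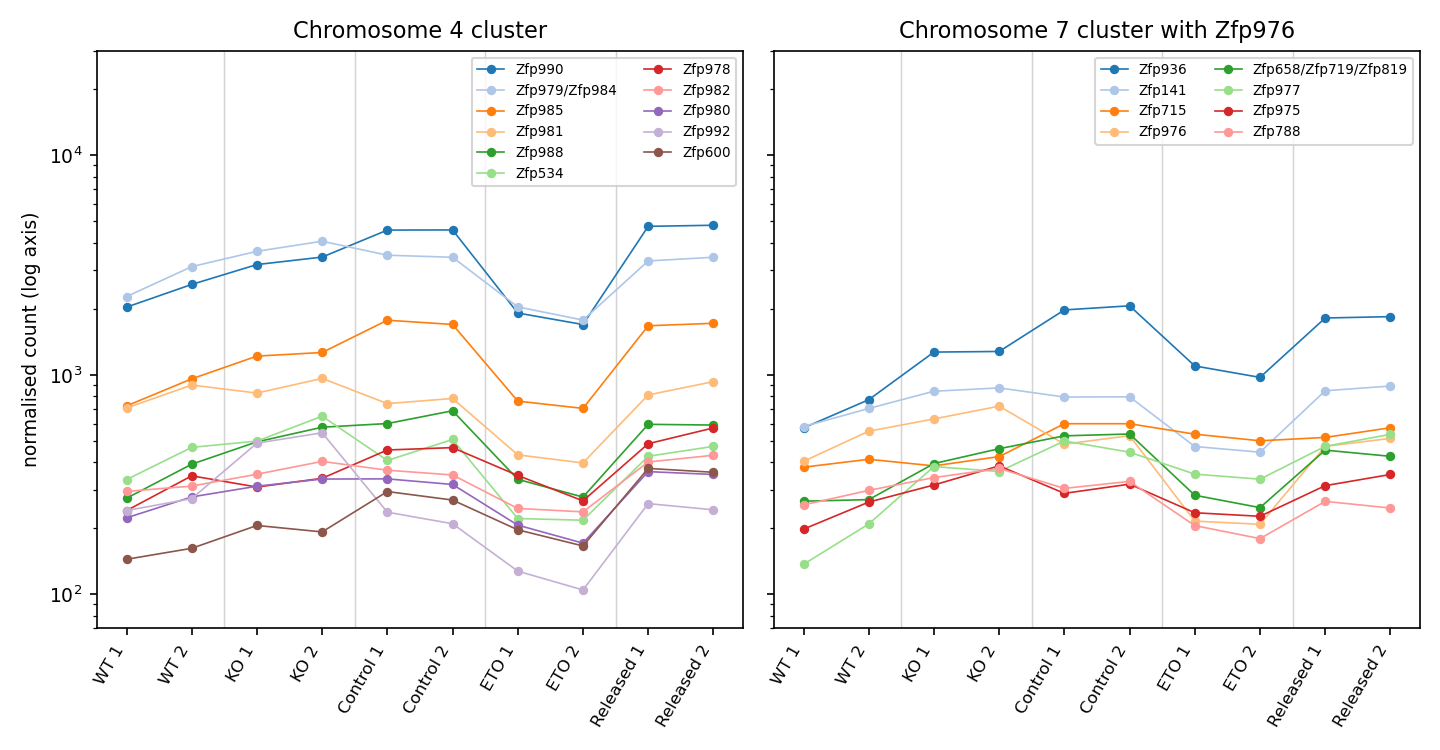
Normalised counts (log axis) of every member of the chromosome 4 cluster (left, 11 members) and the chromosome 7 cluster with Zfp976 (right, 8 members) in each of the 10 libraries, with 1 line per member. In the chromosome 4 panel each line is lower in both ETO libraries than in the Control and Released libraries.

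Released cells were compared with ETO and with Control to see which differences remained 4 days after the drug was removed. The labels name no untreated group with those 4 further days in culture. Effects of the drug, of its removal and of the added time therefore cannot be told apart here. Both comparisons share libraries with ETO against Control, so each is given by its own values. Against ETO, 91 of 238 members rose (38.2%) and 43 fell (18.1%), beside 42.0% and 26.3% of genes with a mean of 100 or more and 33.1% and 24.6% of all genes. Both shares of the members were thus under those of genes of their level. Among KRAB genes 57 rose and 20 fell. All 11 members of the chromosome 4 cluster rose, with a median of 1.02, and 10 of them did so under every alternative. In the chromosome 7 cluster with Zfp976, 7 of 8 rose, and Zfp976 itself went from 215 and 208 to 472 and 513. Zfp207 rose by 0.93 (adjusted p = 2.45e-09), Zfp990 by 1.41 (adjusted p = 5.87e-09) and Zfp985 by 1.21 (adjusted p = 7.14e-08, limma). Zfp750 fell by 1.64 (adjusted p = 7.8e-09), Zfp362 by 1.62 (adjusted p = 6.25e-07) and Zfp36 by 1.22 (adjusted p = 2.74e-06, limma). Zfp362 is a member through its ETO libraries, which favoured its fall here. FPKM values gave 28 falling members.

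Against Control, 10 members rose and 15 fell, 4.20% and 6.30%, beside 6.92% and 7.89% of genes with a mean of 100 or more and 7.03% and 5.51% of all genes. No member of the chromosome 4 cluster or of the chromosome 7 cluster with Zfp976 was called, by limma at an adjusted p under 0.05. Zfp750 was at 205 and 209.7 in Released, above both Control libraries and under both ETO libraries (1.25, SE 0.11, adjusted p = 5.49e-06, limma). Zfp365 was at 294 and 296 in Control, 601 and 658 with ETO and 443 and 457 in Released (0.61, adjusted p = 0.000468, limma), a call that FPKM values did not make. Zfp462, a chromatin factor of stem cells, was at 794 and 757 in Control and 1029.5 and 1089 in Released (0.45, adjusted p = 0.00137, limma), above its level in ETO of 707 and 790.4. Zfp26, a KRAB gene, was at 1108 and 962 in Control, 635 and 615 with ETO and 677 and 718 in Released (-0.57, adjusted p = 0.00105, limma). Zfp386 changed by -0.66 (adjusted p = 0.00485, limma). These counts were fragile. Without any 1 of the Control or Released libraries 4 rose, and 1 fell without Control replicate 1, 4 without any other of these, 9 without either ETO library and 27 without either WT library. FPKM values gave 1 rising and 0 falling.

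The KO and ETO changes were set against each other by a test of their difference, since they come from different lines and experiments and share no library. The difference, KO change minus ETO change, was called positive in 118 members and negative in 27, 49.6% and 11.3%. Of genes with a mean of 100 or more 43.3% and 21.7% were called so, and of all genes 32.3% and 22.2%. Among KRAB genes 73 were positive and 10 negative, with a median difference of 0.69 against 0.13 over all genes. With the total signal as the factor these were 56 and 24. The largest positive differences were those of Zfp992 (1.95), the row of Zfp936 (1.90), Zfp990 (1.87), Zfp985 (1.82) and Zfp988 (1.78).

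Of the 98 members that rose in KO, 58 fell in ETO, which is 59.2% of the first list and 55.2% of the 105 that fell in ETO. Over all genes those shares were 39.9% and 28.9%. The overlap was not counted over genes with a mean of 100 or more, the nearer background. More of those rose in KO (32.5% against 24.6% of all genes) and fell in ETO (43.9% against 34.0%). Members that rose in both were 13, or 13.3% of those that rose in KO and 31.0% of those that rose in ETO, against 33.0% and 30.2% over all genes. These 13 include Zfp750, Zfp365 and Zfp36. For Zfp365 the KO change minus the ETO change was 0.13 (SE 0.13, adjusted p = 0.425, limma). For Zfp750 the rise in ETO was larger than that in KO, where it went from 255 and 269 to 475 and 507 (difference -1.99, SE 0.16, adjusted p = 7.98e-08, limma). Zfp264 moved in opposite directions, from 91.4 and 90.7 in Control to 183 and 156 in ETO (difference -2.30, SE 0.22, adjusted p = 5.48e-07, limma).

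**Figure D4:**
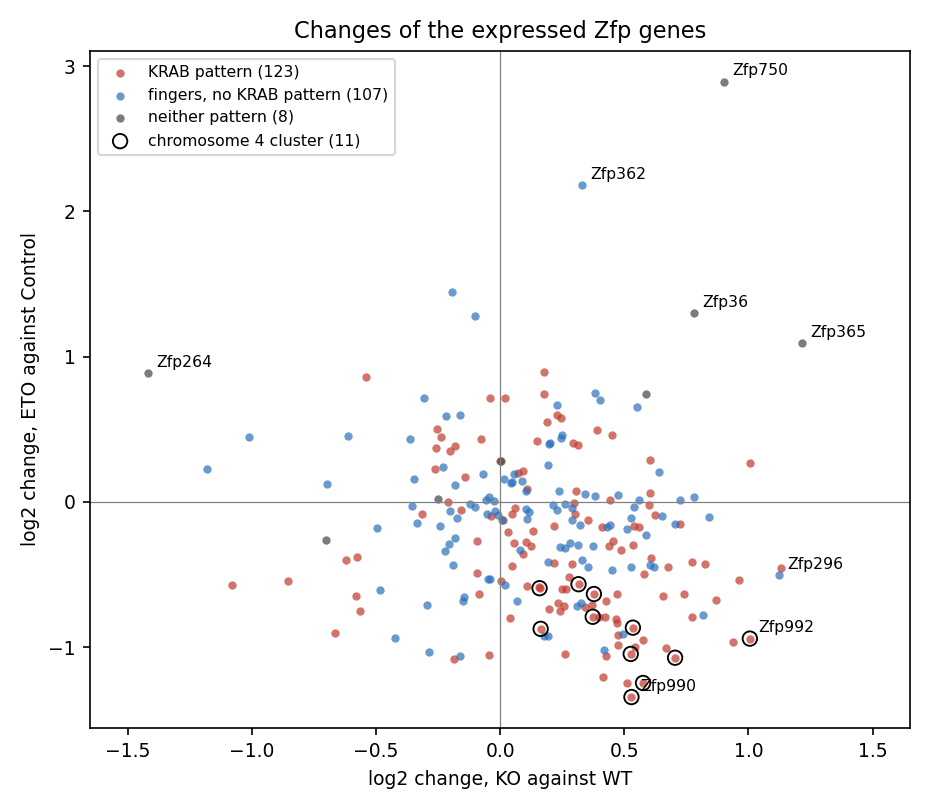
Each point is 1 of the 238 members, with the log2 change of KO against WT on the x axis and of ETO against Control on the y axis, coloured by protein pattern; circles mark the 11 members of the chromosome 4 cluster. The circled points lie right of 0 and under 0, and Zfp750 stands highest at 0.90 and 2.90.

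The partners that KRAB proteins work through were counted from a list of 30 genes, 28 of them tested. In KO 19 rose (67.9%) and 2 fell, with a median of 0.34, beside 24.6% of all genes and 32.5% of those with a mean of 100 or more that rose. In ETO 21 fell (75.0%) and 3 rose, with a median of -0.47, beside 34.0% and 43.9% that fell. Trim28, the corepressor itself, was at 20564 and 20237 in Control, 11397 and 12059 with ETO and 22279.8 and 22907 in Released (ETO against Control -0.80, SE 0.06, adjusted p = 2.96e-08, limma). Setdb1 changed by -0.94 in ETO (adjusted p = 2.25e-09), Cbx1, a heterochromatin protein gene, by -1.16 (adjusted p = 2.75e-10) and Uhrf1, which guides DNA methylation to replicated DNA, by -1.52 (adjusted p = 7e-12, limma). Suv39h1, another histone methyltransferase gene, went the other way in ETO (0.95, adjusted p = 8.61e-07, limma). The KO changes of Trim28 (0.19, adjusted p = 0.0264) and Setdb1 (0.09, adjusted p = 0.265, limma) were small, and that of Setdb1 was not called. Cbx1 rose by 0.33 in KO (adjusted p = 0.000516), while Uhrf1 fell there as well (-0.25, adjusted p = 0.00249, limma). In KO the smallest adjusted p belonged to Trim24 (0.68, adjusted p = 4.9e-06), and Fam208a, a subunit of the HUSH silencing complex, rose by 0.80 (adjusted p = 6.16e-05, limma). Against Control, Released cells had 1 partner higher (3.57%) and 3 lower (10.7%). Beside these stood 7.03% and 5.51% of all genes and 6.92% and 7.89% of those with a mean of 100 or more. With FPKM values 11 partners rose in KO.

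Related zinc finger families were counted beside the members, with no test of the differences between lists. Of all genes tested, 24.6% rose and 13.3% fell in KO, and 26.8% rose and 34.0% fell in ETO. Of 39 Zbtb genes, which carry a BTB domain in place of KRAB, 16 rose (41.0%) and 2 fell (5.13%) in KO, with a median of 0.22, shares close to the members' own. In ETO 14 Zbtb genes rose (35.9%) and 10 fell (25.6%), with a median of 0.15. Of 22 Zscan and Zkscan genes, which carry a SCAN domain, 3 rose (13.6%) and 4 fell (18.2%) in KO, and 7 rose (31.8%) and 5 fell (22.7%) in ETO. Of the 81 tested Zfp genes under the mean of 100, 6 rose (7.41%) and 15 fell (18.5%) in KO, and 17 rose and 14 fell (17.3%) in ETO. Over all 319 tested Zfp genes of any level, 104 rose and 33 fell in KO, and 59 rose and 119 fell in ETO. Counting error and the offset of 1 added before the logarithm weigh more on the weakly expressed genes.

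WT and Control are the reference groups of their experiments, but line, strain background, vehicle and experiment cannot be told apart between them. WT was higher than Control in 46 members and lower in 113, 19.3% and 47.5%, beside 32.7% and 37.4% of genes with a mean of 100 or more and 31.1% and 31.8% of all genes. KRAB genes counted 16 higher and 61 lower. The row of Zfp628 with Nat14 was at 66.6 and 47.1 in WT, 78.0 and 56.3 in KO, 249.9 and 294 in Control, 276 and 295 with ETO and 278 and 286 in Released. It is a member through its E14tg2a libraries, had higher values in them than in WT and KO, and was called in neither KO against WT nor ETO against Control. Zfp296 (-1.92, adjusted p = 1.58e-09) was lower in WT, as was Zfp454 (-2.17, adjusted p = 4.94e-08), which is a member through its E14tg2a libraries, and Zfp346 (1.38, adjusted p = 1.39e-09) and Zfp512 (1.31, adjusted p = 7.69e-10, limma) were higher.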

How the data were processed

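RNA from 10 libraries was sequenced single-end after TruSeq preparation, per the labels' protocols. The submitters' processing notes name the aligner TopHat2 2.1.1, the build mm10, SAMtools 1.5 and deepTools. The program that made the gene tables, its handling of strand and of reads that match several genes are not given in the sources used here, so overlapping, antisense and near-identical genes are uncertain. The deposited table, named counts per the file headers, holds a normalised signal, in which each library's read counts were scaled by a single factor. Of values under 20 reads, 88.8% to 90.5% were whole reads within 0.1, so no count model was fitted. The second deposited table holds FPKM values, per the file headers.

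Rows with the same name were summed, which joins split rows for 12 members, and 39 members are rows that merge several genes. Normalised counts were taken to log2(value + 1) from the deposited scale, which understates changes of low genes. The 16056 genes with at least 10 in at least 2 libraries were fitted with 1 mean per group over the 10 libraries in limma 3.58.1 (R 4.3.3), with an intensity trend and robust moderation, two-sided. Rows with mt-Atp6 or mt-Nd6 were left out of the tests. Because nothing says what separated the duplicates, the p-values reflect the spread of these libraries, which may be technical. Tables and figures used Python 3.11.15, pandas 2.3.3, numpy 2.4.6 and matplotlib 3.10.9. The fit was tested on simulated data.

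The members, gene lists and alternatives were chosen with earlier results of these data known. Named genes are, per comparison, the 10 called members with the largest change in each direction and groups that do not overlap, members of the 3 role lists, the members of highest mean and those next to the threshold, and the 4 partners of smallest adjusted p. All members of a cluster, Zfp511, Zfp715, the members with neither pattern and Suv39h1 were named after their values were seen. Protein patterns come from GENCODE M21 coding sequences. A KRAB spacing planned first matched no protein and was replaced by a union of shorter patterns after this was seen. Replicate numbers do not pair the samples: deviations of same-numbered libraries correlated at -0.036 to 0.081 over genes.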

Additional observations from a re-analysis of the deposited data

Results flagged for a closer look

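These members had the largest differences between their KO and ETO changes, by limma's test of the difference itself. KO against WT exceeded ETO against Control on the log2 scale by 1.95 for Zfp992 (adjusted p = 4.07e-07), 1.90 for the row of Zfp936 with EU599041 (adjusted p = 8.46e-08), 1.87 for Zfp990 (adjusted p = 2.55e-08), 1.82 for Zfp985 (adjusted p = 7e-08) and 1.78 for Zfp988 (adjusted p = 4.86e-06). All 5 rose in KO and fell in ETO. The KO change was under the ETO change for Zfp264 (-2.30, adjusted p = 5.48e-07), Zfp750 (-1.99, adjusted p = 7.98e-08), Zfp362 (-1.85, adjusted p = 8.12e-06), the row of Zfp775 with Repin1 (-1.64, adjusted p = 1.44e-07) and the row of Zfp783 with Zfp956 (-1.46, adjusted p = 4.68e-06). Zfp750 rose in both. Zfp264 and the row of Zfp783 fell in KO and rose in ETO, and Zfp362, a member through its ETO libraries, and the row of Zfp775 were called in ETO alone. The cell line and the experiment cannot be told apart from the treatments in these differences.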

How the results depend on the processing

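In all, 23 alternatives were run, of which the fit on rows that were not summed by name was chosen after seeing the data. KO rising members, 98 as reported, were 44 with FPKM values and 55 with the total signal as the factor, and KO falling members, 18, were 33 with median-of-ratios factors, 46 with the total signal and 6 with a mean of at least 200. Released against ETO falling, 43, was 28 with FPKM values. Released against Control rising, 10, was 1 with FPKM values, 22 with a fit per experiment and 6 without trend and robust moderation. Released against Control falling, 15, was 0 with FPKM values, 38 with a fit per experiment, 6 without the filter on low values, 4 without trend and robust moderation, 6 with the total signal and 30 with the replicate block. The difference between KO and ETO changes falling, 27, was 49 with median-of-ratios factors, 67 with the total signal and 16 with a mean of at least 200. Leaving out 1 library at a time gave, rising and falling, 67 to 105 and 16 to 20 for KO, 36 to 45 and 88 to 109 for ETO, 80 to 96 and 33 to 49 for Released against ETO, 4 to 12 and 1 to 27 for Released against Control, 33 to 47 and 104 to 121 for WT against Control, and 108 to 124 and 20 to 30 for the difference. With the replicate number as a block 114 members rose in KO. Single results turned with FPKM values for Zfp326 in KO (-0.002957), the row of Zfp932 with Gm15446 in Released against ETO (-0.18) and Zfp950 in WT against Control (0.05774), and the cause was not tested. Of 224 called results of named members, 146 held in every alternative. Depth limits the members in the groups where they are low, since 3 reads were worth up to 4.04 normalised counts.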
